A study of Mus musculus with 48 samples.

Results

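The AP-1 transcription factor is a dimer of proteins from the Fos and Jun families, and the measured members of these families were Fos, Fosb, Junb, Jun and Jund in mouse hippocampus and amygdala. Every probe set whose platform annotation names 1 of these 5 genes was taken, whatever its values. That gave 7 probe sets of the 12422 on the array that are not array controls, and 5 genes of 8251 gene symbols. Fos and Junb had 2 probe sets each, and Fosb, Jun and Jund had 1 each. Transcript levels were measured on 48 one-colour Affymetrix oligonucleotide arrays, and the groups were FC, CS and NH in each tissue. Hippocampus had 8 FC, 8 CS and 10 NH arrays, and amygdala had 6 FC, 6 CS and 10 NH arrays. The codes are not spelled out in the labels. The series title concerns associative and nonassociative learning, and the codes were read from it as fear conditioning, conditioned stimulus alone and naive home cage. The labels used here give no strain, age or time after the session, and do not say which animals an array came from, so p-values measure the spread between arrays, which may be partly technical. The array titles leave a link between the tissues possible. All 22 amygdala numbers begin with the digit of their batch, and the remaining digits can be split into a pair of numbers. For 8 amygdala arrays both of these are also numbers of hippocampus arrays, for 2 arrays 1 of them is, and always in the same arm. Every split of the digits was tried for this. Of those 2 arrays, CS replicate 3151152 matches only through an uneven split that gives 15, so its match may be no link. An amygdala array may thus hold tissue of a pair of animals whose hippocampi were also measured, which the labels do not state.

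Fos proteins cannot pair with each other and act as dimers with a Jun protein, whereas Jun proteins can also pair among themselves. The dimers bind short DNA elements in the promoters and enhancers of many genes. Fos, Fosb and Junb belong to the immediate early genes, which neurons transcribe within minutes of strong synaptic input without needing new protein, through the factors CREB and SRF on their promoters. Fos transcript is for this reason a common marker of recently active neurons in the hippocampus, which serves memory for places and contexts, and in the amygdala, which serves learned fear. Jund, in contrast, is generally described as expressed steadily in many cell types. Jun is generally described as regulated in part by its own protein.

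The promoters of Fos, Fosb and Junb are shown next to the start site, where CREB is generally described to act on Fos, and that of Jun beside them for its own element. No relation between these letters and the measured differences was tested. Each sequence is the 150 bases before the RefSeq transcription start in assembly GRCm38.p6, read 5′ to 3′ on the strand of the gene. Capitals mark the matches to TGACG, the core of the CREB site, to TGACATCA, the site through which Jun is generally described to act on its own gene, and to the general promoter elements TATAAA and CCAAT, each searched on both strands together with the AP-1 consensus TGACTCA.
Fos, chr12:85473740-85473889, plus strand: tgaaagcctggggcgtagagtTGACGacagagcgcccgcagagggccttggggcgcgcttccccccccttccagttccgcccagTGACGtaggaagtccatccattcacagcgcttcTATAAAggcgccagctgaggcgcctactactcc
Fosb, chr7:19310046-19310195, minus strand: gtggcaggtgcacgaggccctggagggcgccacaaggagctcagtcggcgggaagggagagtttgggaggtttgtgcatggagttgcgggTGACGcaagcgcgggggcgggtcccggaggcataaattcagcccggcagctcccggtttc
Junb, chr8:84978749-84978898, minus strand: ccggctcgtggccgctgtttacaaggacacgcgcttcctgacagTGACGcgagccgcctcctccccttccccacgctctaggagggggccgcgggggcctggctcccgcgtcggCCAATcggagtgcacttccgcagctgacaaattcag
Jun, chr4:95052223-95052372, minus strand: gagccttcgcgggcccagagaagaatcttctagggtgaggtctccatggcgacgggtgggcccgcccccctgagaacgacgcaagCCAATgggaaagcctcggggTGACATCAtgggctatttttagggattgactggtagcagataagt

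The TGACG core occurred at 2 places in the Fos window, with first bases at -129 and -66 from the start site, and once each in Fosb (first base at -60) and Junb (first base at -106). Of 32851 RefSeq promoter windows of the same length, 13.3% held this core. The Jun window held no TGACG core. It held TGACATCA with its first base at -45, and 2.32% of all windows held that element. TATAAA was found in Fos (7.57% of all windows), and CCAAT in Junb and Jun (24.5%). None of the 5 windows held TGACTCA, which 2.84% of all windows did, and Jund matched none of these motifs. A match is a match of letters and does not show that a factor binds there. The genes themselves lie at chr12:85473890-85477274 (Fos), chr7:19302696-19310118 (Fosb), chr8:84976909-84978748 (Junb), chr4:95049036-95052222 (Jun) and chr8:70697739-70700616 (Jund) in the same assembly, and all 5 are protein coding.

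Levels are given as the log2 of the deposited intensity, so a difference of 1 is a doubling. The tissues appear to have been normalized apart, with array medians of 76.5 to 80.8 intensity units in hippocampus and 52.3 to 56.1 in amygdala, so a level in one tissue is not set against a level in the other. Differences between arms come from limma with the processing batch as a block, with p-values adjusted over the 7453 probe sets tested in that tissue. Probe sets among the 40% dimmest of a tissue were not tested. 6 of the 7 AP-1 probe sets were tested, and the second Fos probe set lay below that limit in both tissues. Of 10 NH arrays per tissue, 6 were processed in a batch without FC or CS arrays, so every difference from NH rests on the other 4 NH arrays. FC minus NH and CS minus NH share these NH arrays and are not independent of each other. Each array's median correlation with the others of its tissue lay between 0.990 and 0.996. Of the 6 hippocampal markers measured, 4 followed the tissue labels, their percentile being higher in all hippocampus arrays than in all amygdala arrays. Neurod6, a neuronal transcription factor, was 1 of them, with mean percentiles of 35.0 (amygdala) and 82.2 (hippocampus). Wfs1 went the other way. Of 3 amygdala markers, Tac2 and Cdh13 lay higher in every amygdala array and Rspo2 lay higher in every hippocampus array.

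Fos was higher after both sessions in both tissues. In amygdala, its level was lowest at 6.65, had a median of 6.83 and was highest at 7.04 in FC arrays. In CS arrays the lowest, median and highest were 6.11, 6.33 and 7.05, and in NH arrays 4.64, 5.33 and 5.58. Neither FC nor CS overlapped with NH, whereas FC and CS overlapped with each other through 1 CS array at 7.05. On the linear scale the medians were 114 in FC, 80.4 in CS and 40.1 in NH. Fos was 2.89-fold higher in FC than in NH, a log2 difference of 1.53 ± 0.146 (SE; limma, adjusted p = 1.44e-06), and 2.22-fold higher in CS than in NH, a log2 difference of 1.15 ± 0.149 (adjusted p = 4.44e-04). It had the smallest p of all probe sets tested in both comparisons.

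The batches that held all 3 arms gave Fos values of the same order in amygdala. In batch 2 the levels were 7.04, 6.65, 6.80 and 7.02 in FC, 6.43, 7.05 and 6.52 in CS, and 5.41, 5.33 and 5.32 in NH. In batch 3 they were 6.69 and 6.86 in FC, 6.15, 6.11 and 6.22 in CS, and 5.27 in the single NH array. The FC arrays exceeded NH by 1.52 in batch 2 and by 1.51 in batch 3, and the CS arrays by 1.31 and 0.89.

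In hippocampus, Fos had a lowest level of 6.66, a median of 6.79 and a highest of 6.91 in FC arrays. The CS arrays had 6.54, 6.61 and 7.03, and the NH arrays 4.85, 5.43 and 6.12. All FC and CS arrays lay above all NH arrays. Median intensities were 111 in FC, 97.7 in CS and 43.0 in NH. Fos was 2.12-fold higher in FC than in NH, a log2 difference of 1.09 ± 0.147 (SE; limma, adjusted p = 5.55e-04), and 1.97-fold higher in CS than in NH, a difference of 0.98 ± 0.149 (adjusted p = 0.00433). It ranked first of all probe sets in both comparisons here as well, and was the 1 probe set called in each of them, 0.0134% of those tested. Fos passed the brightness limit in hippocampus through its FC and CS arrays. The limit was 5.79, and 8 of the 10 NH arrays lay below it, with an NH mean of 5.44. In amygdala the limit was 5.21, the NH mean 5.26, and 3 of 10 NH arrays lay below. The size of each Fos difference therefore rests on NH levels near or under that limit. With no brightness limit, the Fos differences were called as well (limma, adjusted p = 5.21e-04 for FC and 0.00442 for CS in hippocampus).

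The NH arrays that carry the hippocampal differences were not alike for Fos. In batch 4 the levels were 6.78 and 6.91 in FC, 6.62, 6.80 and 6.59 in CS, and 5.26 and 6.12 in NH. In batch 6 they were 6.84 and 6.88 in FC, 6.61 in the single CS array, and 5.47 and 6.04 in NH. The spread of Fos over all 10 NH arrays was ± 0.409 around a mean of 5.44 (SD), against ± 0.0918 around 6.78 in FC and ± 0.165 around 6.67 in CS (SD, n = 8 each). Without NH replicate 100, the NH array at 5.26, the CS minus NH difference was 0.79 and no longer passed (limma, adjusted p = 0.116), and it passed without each of the other 25 hippocampus arrays in turn. On NH replicate 100 the 3′ to 5′ log2 differences of the Gapdh and actin controls, a sign of RNA quality, were the highest of all hippocampus arrays at 0.485 and 1.17, with the next highest at 0.376 and 1.11, and its median correlation with the other arrays was the lowest of the tissue at 0.990. Their part in the result was not tested. FC minus NH passed without each of the 26 hippocampus arrays and lay between 0.91 and 1.25.

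**Figure D1:**
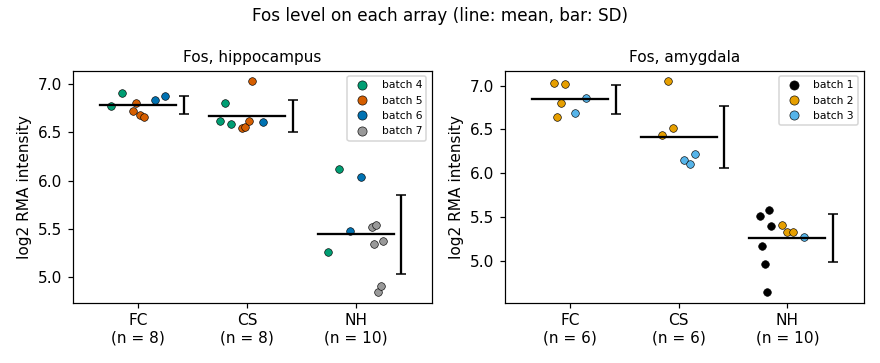
Log2 intensity of Fos (y axis) on each array of hippocampus and amygdala, by arm (FC, CS, NH from left to right on the x axis), with a colour for each processing batch, a line for the group mean and a bar for the SD. All FC and CS arrays lie above all NH arrays of their tissue, and the CS arrays of amygdala reach from 6.11 to 7.05.

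The second Fos probe set was dim, at a mean percentile of 25.5 of the hippocampus arrays and 23.0 of the amygdala arrays, against 49.4 and 55.3 for the tested probe set. Its levels overlapped across all arms. In amygdala it lay at 3.98 to 4.33 in FC, 4.12 to 4.37 in CS and 3.92 to 4.32 in NH, and in hippocampus at 4.69 to 5.39 in FC, 4.62 to 5.22 in CS and 4.55 to 5.16 in NH. FC minus NH was 0.03 in amygdala and 0.04 in hippocampus (95% interval in hippocampus -0.20 to 0.28), and so it did not show the difference seen at the tested Fos probe set. The Fos result therefore rests on 1 probe set.

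Junb, a Jun family protein that is generally described as a weaker activator than Jun, was measured by 2 probe sets of similar brightness. They are called the i and the r probe set here, after the letter in their array names. The Junb i probe set was higher in FC than in NH in amygdala. Its lowest, median and highest levels there were 7.69, 7.74 and 7.80 in FC, 7.44, 7.52 and 7.57 in CS, and 6.88, 7.11 and 7.31 in NH. No array of 1 arm overlapped with any array of another arm, so the order was FC above CS above NH in all 22 arrays. The spread was ± 0.0397 around 7.74 in FC and ± 0.0514 around 7.51 in CS (SD, n = 6 each), and ± 0.132 around 7.11 in NH (SD, n = 10). FC exceeded NH 1.45-fold, a log2 difference of 0.53 ± 0.0573 (SE; limma, adjusted p = 7.45e-06), ranked second of all probe sets after Fos. Batch 2 by itself gave 0.52 and batch 3 gave 0.57.

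For the same Junb probe set in amygdala, CS minus NH was 0.30 ± 0.0583 (95% interval 0.18 to 0.42) and ranked second of 7453. It missed the threshold with the batch as a fixed block (limma, adjusted p = 0.0905). It passed with the batch as a random block (0.35, adjusted p = 0.00350), with array weights (0.34, adjusted p = 0.00115) and without the 6 NH arrays processed by themselves (0.30, adjusted p = 0.0316), the last of which was chosen after seeing the data. It also passed without NH replicate 16566 or without NH replicate 16970, both of that batch (adjusted p = 0.0228 and 0.0277). In batch 2 the CS arrays had 7.44, 7.51 and 7.55 and the NH arrays 7.23, 7.13 and 7.31. In batch 3 the CS arrays had 7.46, 7.54 and 7.57 and the NH array 7.16.

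The Junb r probe set, which the platform annotation draws from the same sequence record, had smaller differences in amygdala. Its levels were 7.39, 7.60 and 7.74 in FC, 7.29, 7.33 and 7.65 in CS and 7.03, 7.17 and 7.50 in NH (lowest, median and highest), so all neighbouring arms overlapped. The difference of FC from NH was 0.33 ± 0.0718 (SE; limma, adjusted p = 0.0832) and CS minus NH was 0.18 ± 0.0731 (adjusted p = 0.942). FC minus NH at this probe set passed with a random block (0.34, adjusted p = 0.0279), with no batch term (0.37, adjusted p = 0.00832) and with array weights (0.37, adjusted p = 2.68e-04). It passed as well without CS replicate 21523 (0.34, adjusted p = 0.0464) or without NH replicate 299141 (0.40, adjusted p = 0.0200). With both Junb probe sets averaged to 1 value, FC minus NH was 0.43 ± 0.0589 (adjusted p = 3.86e-04).

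In hippocampus, no Junb difference passed the test with the batch as a fixed block. The lowest, median and highest levels of the i probe set were 7.65, 7.82 and 8.20 in FC, 7.73, 7.87 and 8.13 in CS and 7.41, 7.60 and 7.97 in NH. Those of the r probe set were 7.70, 7.93 and 8.01 in FC, 7.62, 7.84 and 7.98 in CS and 7.43, 7.55 and 7.75 in NH. All groups overlapped in full or in part. FC minus NH was 0.34 ± 0.0808 at the i probe set (SE; limma, adjusted p = 0.573, rank 4 by p) and 0.29 ± 0.0714 at the r probe set (adjusted p = 0.583, rank 6). CS minus NH was 0.28 ± 0.0818 (95% interval 0.11 to 0.45) and 0.25 ± 0.0723 (0.10 to 0.39), ranks 9 and 10 by p. The random block brought FC minus NH at the r probe set to 0.30 (adjusted p = 0.0306), and leaving out the batch term gave 0.31 (adjusted p = 0.00339). Without the batch term, CS minus NH at this probe set was 0.26 and passed as well (adjusted p = 0.0245).

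Processing batch moved with the level of Junb in hippocampus. In batch 4 the levels of the i probe set were 8.20 and 8.19 in FC, 7.89, 8.13 and 7.98 in CS, and 7.64 and 7.97 in NH. In batch 5, which had no NH array, they were 7.74, 7.65, 7.88 and 7.75 in FC and 7.85, 7.74, 7.73 and 7.89 in CS. The FC arrays exceeded NH by 0.39 in batch 4 and 0.38 in batch 6, and the CS arrays by 0.20 and 0.30. In both batches all FC arrays lay above all NH arrays at both Junb probe sets.

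**Figure D2:**
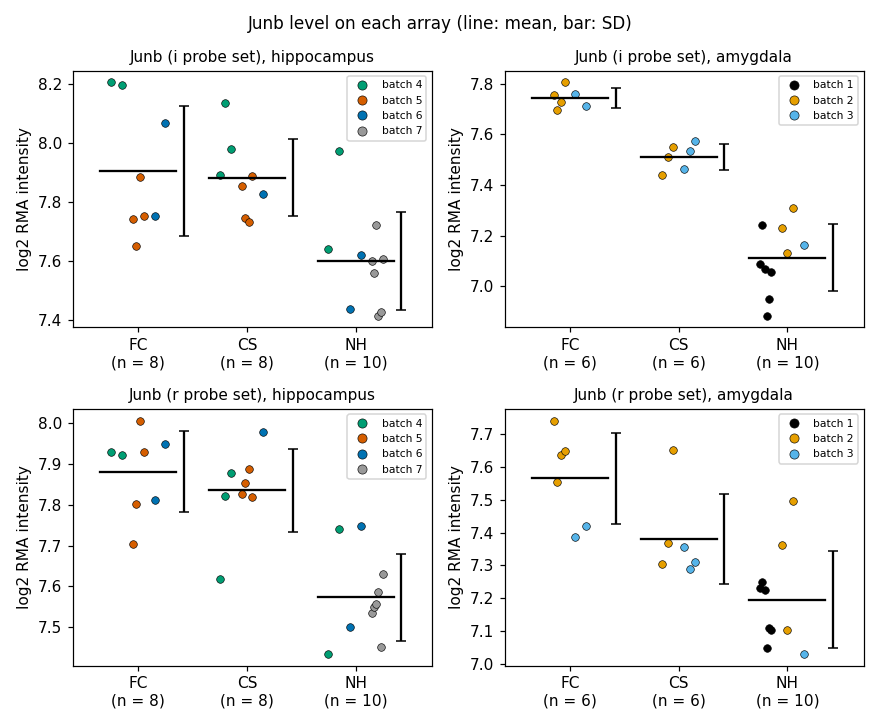
Log2 intensity of the 2 Junb probe sets (y axis) on each array, by tissue and arm (FC, CS, NH from left to right on the x axis), with a colour for each processing batch, a line for the group mean and a bar for the SD. In amygdala the arms do not overlap at the i probe set, with FC at 7.69 to 7.80, CS at 7.44 to 7.57 and NH at 6.88 to 7.31.

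Fosb encodes a Fos family protein, and a shortened splice form of it, deltaFosB, is known for building up in neurons with repeated stimulation. The probe set cannot tell these forms apart from the values. In amygdala its lowest, median and highest levels were 7.04, 7.10 and 7.15 in FC, 6.91, 6.92 and 7.00 in CS, and 6.86, 6.95 and 7.12 in NH. FC and CS arrays did not overlap, and 1 NH array of the batch processed by itself, at 7.12, reached into the FC range. FC minus NH was 0.16 ± 0.0464 (SE; limma, adjusted p = 0.569, rank 21 of 7453), with 0.19 in batch 2 and 0.11 in batch 3. With array weights it was 0.15 and passed (adjusted p = 0.0195). CS minus NH was 0.02, with a 95% interval of -0.08 to 0.11.

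In hippocampus the Fosb levels overlapped almost wholly, at 7.27 to 7.47 in FC, 7.22 to 7.50 in CS and 7.22 to 7.45 in NH. Fosb differed there by 0.01 in FC minus NH (95% interval -0.10 to 0.13) and by 0.04 in CS minus NH (-0.08 to 0.15). The upper ends of these intervals exclude differences of the size measured for Fos.

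Jun, the founding member of its family, and Jund did not pass the test in any comparison. In amygdala the levels of Jun were 6.49, 6.53 and 6.61 in FC, 6.35, 6.47 and 6.61 in CS, and 6.32, 6.43 and 6.51 in NH (lowest, median and highest). The FC minus NH difference of Jun was 0.10 ± 0.0501 (SE; 95% interval -0.00 to 0.21, limma, adjusted p = 0.894), with 0.06 in batch 2 and 0.21 in batch 3. In hippocampus the levels ranged from 7.65 to 7.89 in FC, 7.72 to 8.02 in CS and 7.70 to 8.00 in NH. FC minus NH was -0.09 there (95% interval -0.23 to 0.05) and CS minus NH was -0.02 (-0.16 to 0.12).

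Jund was among the brightest probe sets of both tissues, with mean percentiles of 99.5 (amygdala) and 99.4 (hippocampus). Its amygdala levels ranged from 10.72 to 11.08 in FC, 10.61 to 11.03 in CS and 10.49 to 10.99 in NH. Its hippocampus levels ranged from 10.92 to 11.23 in FC, 11.10 to 11.41 in CS and 10.92 to 11.35 in NH. FC minus NH was 0.08 in amygdala (95% interval -0.09 to 0.24) and -0.02 in hippocampus (-0.19 to 0.14). CS minus NH was -0.02 in amygdala (95% interval -0.19 to 0.15) and 0.10 in hippocampus (-0.06 to 0.27). With single arrays left out these Jund values ranged from -0.09 to 0.04 and from 0.01 to 0.19, and with no batch term the amygdala value was 0.12.

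**Figure D3:**
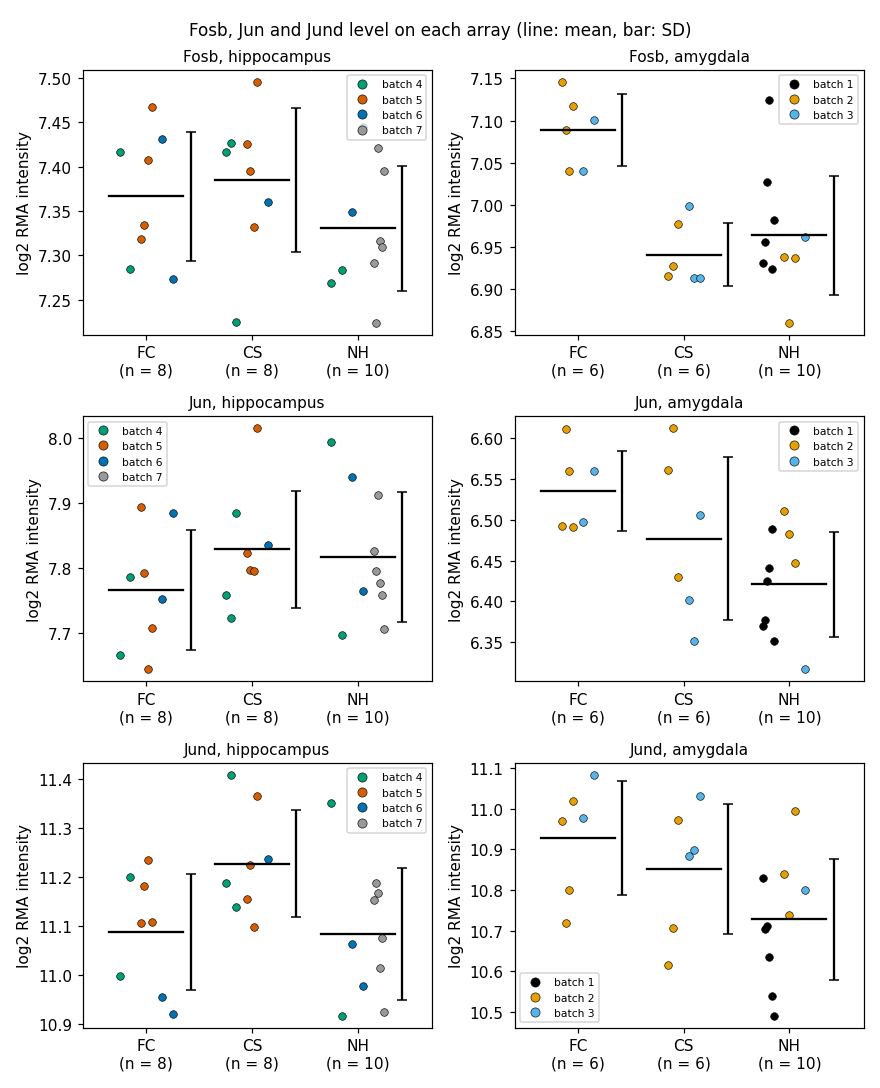
Log2 intensity of Fosb, Jun and Jund (y axis, a scale of its own for each gene) on each array, by tissue and arm (FC, CS, NH from left to right on the x axis), with a colour for each processing batch, a line for the group mean and a bar for the SD. The arms overlap in every panel except FC against CS for Fosb in amygdala, where FC lies at 7.04 to 7.15 and CS at 6.91 to 7.00.

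The comparison of FC with CS bears on associative against nonassociative learning, as the codes were read, but the 2 sessions may have differed in other ways too. In amygdala, Junb and Fosb had the 2 smallest p of all 7453 probe sets in this comparison, but no probe set passed the adjusted threshold. FC minus CS was 0.23 ± 0.0517 for Junb at the i probe set (SE; 95% interval 0.12 to 0.34), 0.15 ± 0.0419 for Fosb (0.06 to 0.23) and 0.38 ± 0.132 for Fos (0.11 to 0.66), a 1.31-fold difference that ranked eighth. At the Junb r probe set it was 0.15 ± 0.0648 (0.02 to 0.29). The adjusted p of these 4 probe sets was 0.9995 (limma). All FC arrays lay above all CS arrays of their batch for Junb at the i probe set and for Fosb, which was true of 0.0537% of all probe sets tested. At an unadjusted p under 0.05, 4 of the 6 AP-1 probe sets counted, against 1.23% of all tested.

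The amygdala difference in Fos between FC and CS was uneven across batches. It was 0.21 in batch 2 (4 FC and 3 CS arrays) and 0.61 in batch 3 (2 FC and 3 CS arrays). In batch 2 the CS array at 7.05 lay above all FC arrays, and in batch 3 both FC arrays lay above all CS arrays. Within batch 3 alone the Fos difference passed (limma, adjusted p = 0.00626). Within batch 2 alone no AP-1 probe set passed. Junb at the i probe set gave 0.25 and 0.21 in batches 2 and 3, and Fosb 0.16 and 0.13.

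In hippocampus, FC and CS were close for all AP-1 probe sets. FC minus CS was 0.11 for Fos (95% interval -0.12 to 0.34), 0.05 for Junb at the i probe set (-0.07 to 0.18), 0.04 at the r probe set (-0.07 to 0.15), -0.02 for Fosb (-0.11 to 0.06) and -0.07 for Jun (-0.17 to 0.03). Jund had -0.12 ± 0.0602 (SE; -0.25 to -0.00), with -0.15, -0.05 and -0.30 in batches 4, 5 and 6. It was the only AP-1 probe set here at an unadjusted p under 0.05, against 0.765% of all tested. For none of the 7453 probe sets did all FC arrays lie above all CS arrays in each batch. A p above the threshold does not show that the arms were alike, and the interval for Fos still allows a difference of 0.34.

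**Figure D4:**
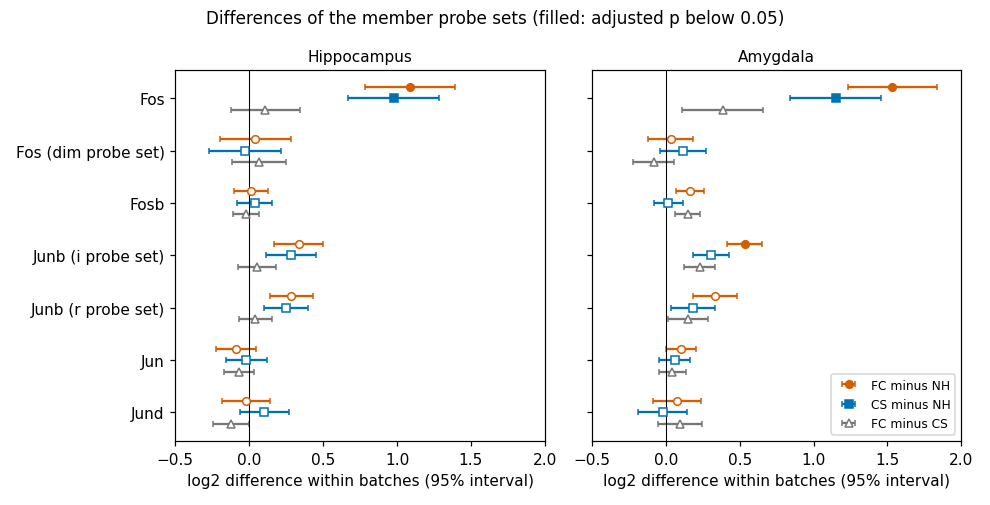
Log2 difference with its 95% interval (x axis) for the AP-1 probe sets (y axis) in FC minus NH, CS minus NH and FC minus CS, by tissue. Filled symbols mark an adjusted p under 0.05, which Fos reached against NH in all 4 cases and Junb at the i probe set in amygdala FC minus NH.

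Counted over the 6 tested AP-1 probe sets, 2 were called higher in amygdala FC minus NH, where 0.0939% of all probe sets were, and 1 in amygdala CS minus NH, where 0.0134% were. In hippocampus 1 was called higher in FC minus NH and 1 in CS minus NH, where 0.0134% of all probe sets were in each. None was called lower in any comparison, and none was called in FC minus CS in either tissue. At an unadjusted p under 0.05 there were 4 in amygdala FC minus NH (5.15% of all tested), 3 in amygdala CS minus NH (3.92%), and 3 each in hippocampus FC minus NH (2.27%) and CS minus NH (1.45%). All arrays lay above NH in each shared batch for 4 of the 6 in amygdala FC minus NH (2.03% of all tested), 2 in amygdala CS minus NH (2.31%), 3 in hippocampus FC minus NH (2.29%) and 1 in hippocampus CS minus NH (1.6%). The median log2 difference of the 6 was 0.25 in amygdala FC minus NH and 0.12 in amygdala CS minus NH, and 0.15 and 0.17 in hippocampus. The median of all tested probe sets lay between -0.00 and 0.01 in these comparisons.

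Whether a member differed from NH more in amygdala than in hippocampus was tested as a contrast in a joint fit of all 48 arrays, over the 7242 probe sets tested in both tissues. No member and no other probe set passed. For FC minus NH, the amygdala difference exceeded the hippocampal one by 0.45 ± 0.219 for Fos (SE; 95% interval 0.00 to 0.89), 0.20 ± 0.0996 for Junb at the i probe set (-0.00 to 0.40), 0.15 ± 0.0686 for Fosb (0.01 to 0.29) and 0.19 ± 0.0812 for Jun (0.03 to 0.36), each with an adjusted p of 0.981 (limma). It was 0.05 for the Junb r probe set (-0.16 to 0.25) and 0.10 for Jund (-0.13 to 0.33). With no batch term the Fos contrast was 0.25. For FC minus CS, Fosb had the third smallest p of all, with 0.17 ± 0.0572 (0.06 to 0.29), and Jund had 0.22 ± 0.0950 (0.03 to 0.41). The Fos contrast for FC minus CS was 0.28 ± 0.183 (-0.09 to 0.64), and for CS minus NH it was 0.17 ± 0.223 (-0.28 to 0.62), which turned to -0.07 with no batch term. At an unadjusted p under 0.05, 3.42% of all probe sets counted for FC minus NH, 1.37% for FC minus CS and 2.53% for CS minus NH. A scale factor that is the same for all probe sets drops out of these contrasts. A scaling that varied with brightness and differed by tissue would remain. The fit treats arrays of the tissues as independent, which would not hold if they share animals.

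Partners and relatives of AP-1 were followed in a list of 26 genes of the bZIP class, which includes the Fos family member Fosl2, the ATF factors that can pair with Jun, and the Maf and CEBP factors. Of 17 tested in hippocampus and 16 in amygdala, none passed in any comparison (limma). In this list and those below, each gene was followed by 1 probe set, the brightest tested in the tissue. The count at an unadjusted p under 0.05 was 1, for Atf4, a factor of the amino acid and stress response, in amygdala FC minus NH (0.13, adjusted p = 0.894). Of all probe sets tested, 5.15% counted in that comparison. Fosl2 had -0.10 in amygdala FC minus NH, -0.12 in amygdala CS minus NH and 0.10 in hippocampus FC minus NH. The median of the list lay between -0.01 and 0.03 in the 6 comparisons.

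Kinases and promoter factors generally described as acting upstream of Fos and Jun, such as the MAP kinases, CaM kinases, Elk1 and the CREB coactivator Crebbp, gave 16 tested genes in hippocampus and 15 in amygdala. None passed in any comparison (limma). At an unadjusted p under 0.05 there were 2 in hippocampus FC minus NH, the kinase Camk2a (0.76 ± 0.339) and Elk1 (0.22). There were 2 in amygdala CS minus NH, Crebbp (0.16) and the JNK family kinase Mapk10 (0.12), and 1 in amygdala FC minus NH, Mapk10 (0.13). Of all probe sets tested, 2.27%, 3.92% and 5.15% counted in these comparisons, in the order given. These are transcript levels, and the activity of the kinases was not measured.

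Genes generally described as AP-1 targets gave 16 tested in hippocampus and 15 in amygdala, and again none passed (limma). The counts at an unadjusted p under 0.05 were 0 in the 3 hippocampal comparisons and in amygdala FC minus CS. There was 1 each in amygdala FC minus NH (5.15% of all probe sets tested) and CS minus NH (3.92%). Both single genes were Cdk5, a kinase of neurons, with 0.15 in FC minus NH and 0.14 in CS minus NH. Penk, which encodes the precursor of the enkephalins, had 0.23 in amygdala FC minus NH and 0.27 in CS minus NH, and missed that level. Of the target genes, 7 of 15 had a positive difference in amygdala FC minus NH and 4 of 16 in hippocampus FC minus NH.

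Rapid activity genes of other families gave 11 tested in hippocampus and 12 in amygdala. In amygdala FC minus NH 5 of them were called higher, where 0.0939% of all probe sets were, and none lower. The MAP kinase phosphatase Dusp1 had 0.54 (limma, adjusted p = 0.00151) and the orphan receptor Nr4a1 had 0.44 (adjusted p = 5.44e-04). Positive differences were seen for 11 of 12 there, 12 of 12 in amygdala CS minus NH and 10 of 11 in each hippocampal comparison with NH. The list medians were 0.28 and 0.23 in amygdala FC and CS minus NH, and 0.19 and 0.16 in hippocampus.

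By the arrays' pattern after removing batch, the probe sets most like Fos over the 26 hippocampus arrays were Dusp1 (Pearson r = 0.94), Nr4a1 (0.92), both Junb probe sets (0.91 and 0.84) and Ddit4 (0.82). Over the 22 amygdala arrays they were Dusp1 (0.96), the zinc finger factor Egr1 (0.96), Nr4a1 (0.95), Junb at the i probe set (0.91) and Errfi1 (0.91), and the second Junb probe set came 54th (0.76). The most like Junb at the i probe set was Fos in both tissues. After it came Nr4a1 (0.84), Dusp1 (0.83), Nckap1l (0.82) and Egr1 (0.77) in hippocampus, and Dusp1 (0.91), Nr4a1 (0.87), Egr1 (0.83) and Ndufv1 (0.82) in amygdala. Fosb correlated with Fos at 0.24 in hippocampus and 0.53 in amygdala, Jun at -0.32 and 0.59, and Jund at 0.08 and 0.17. These correlations hold the difference between arms and are given as a description.

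With the mean of each arm in each batch removed, arrays high in Fos were also high in Junb in hippocampus. Pearson's r was 0.73 and Spearman's rho 0.71 over 25 arrays, with permutation p of 0.0010 and 0.0020, or 0.0206 and 0.0346 adjusted over the 20 correlations computed among members (two-sided). Without the 2 arrays farthest from the median of Fos, r was 0.65. The relation was uneven. By batch, r was 0.90 in batch 4 (7 arrays), 0.23 in batch 5 (8 arrays) and 0.94 in batch 7 (6 NH arrays), and batch 6 had too few arrays. By arm, r was -0.19 in FC (8 arrays), 0.62 in CS (7 arrays) and 0.97 in NH (10 arrays). It rested mostly on NH arrays, in which Fos also varied most. Without the NH arrays of batches 4 and 6, r was 0.61 and rho 0.59 over 21 arrays. Where an arm had 2 arrays in a batch, their deviations mirror each other and are not independent points. That held for FC and NH in batches 4 and 6.

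In amygdala the same relation was not found, with r = 0.27 and rho = 0.08 over 21 arrays (permutation test, adjusted p = 0.811 and 0.922). Whether the tissues differ in it was not tested. Junb and Jund in amygdala had r = 0.57 (permutation test, adjusted p = 0.167) and rho = 0.69 (adjusted p = 0.0346), so that pair passed by rank and not by Pearson's r. No other pair passed by either measure.

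**Figure D5:**
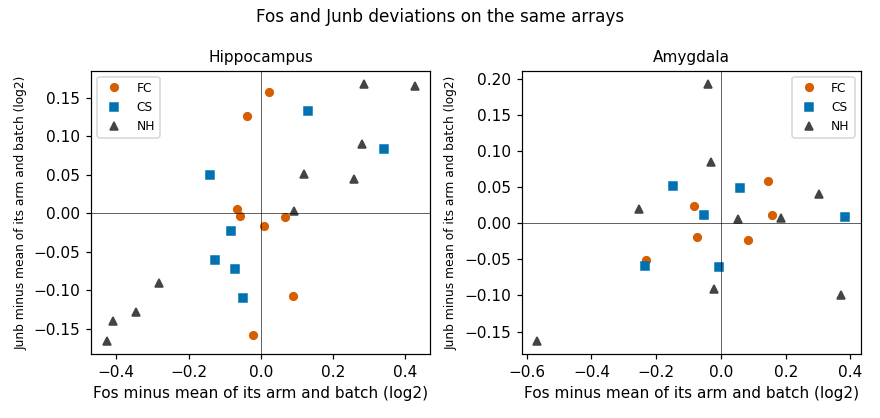
Deviation of Junb at the i probe set (y axis) against deviation of Fos (x axis), both as log2 intensity minus the mean of the array's arm and batch, for hippocampus and amygdala, with a symbol per arm. In hippocampus the points follow a rising line (r = 0.73, 25 arrays) that the NH arrays span, and in amygdala they do not (r = 0.27, 21 arrays). An arm with 2 arrays in a batch gives mirrored points.

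The tissues were measured whole, so a higher Fos or Junb level per cell and more cells with the transcript cannot be told apart. Markers of neurons, glia, vessels, choroid plexus, blood and the neighbouring regions gave 33 tested genes in hippocampus and 26 in amygdala, and none passed in any comparison (limma). At an unadjusted p under 0.05 there were none in hippocampus, 5 of 26 in amygdala FC minus NH (5.15% of all probe sets tested), 2 of 26 in amygdala CS minus NH (3.92%) and none in amygdala FC minus CS. The medians of the marker lists lay between -0.10 and 0.16 in amygdala FC minus NH. In amygdala FC minus NH, 3 of those 5 were among the 4 tested microglia markers, whose median difference was 0.13. Their summed intensity ranged from 624 to 674 in FC, 580 to 668 in CS and 560 to 632 in NH, with all groups overlapping. Summed intensities of other lists also overlapped between the amygdala arms. Blood markers (3 genes) had medians of 1028 in FC, 984 in CS and 836 in NH, and ranged from 864 to 1309, 893 to 1428 and 602 to 1166. Of the hippocampal neuron list, the 2 genes tested in amygdala were Wfs1 and Zbtb20, at mean percentiles there of 94.1 and 42.6. Wfs1 lay higher in all amygdala arrays than in all hippocampus arrays, so their sum is no measure of hippocampal tissue. The sum had medians of 515, 472 and 418, with ranges of 399 to 544, 447 to 544 and 388 to 493 in FC, CS and NH. The 4 general neuron markers had medians of 2374, 2441 and 2757, with ranges of 2270 to 2967, 2009 to 3008 and 2190 to 3089. These sums have no batch term. With the batch as a block, all 4 neuron markers were positive in amygdala FC minus NH (median 0.07) and CS minus NH (0.15). Of the 3 blood markers, 1 was positive in each, with medians of -0.02 and -0.01. Wfs1 and Zbtb20 were positive in each, with medians of 0.13 and 0.10. The part of these marker levels in the Fos and Junb results was not tested. The 3′ to 5′ log2 difference of the actin control probe sets differed by 0.05 between FC and NH in amygdala and by -0.12 in hippocampus, and its part was not tested either.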

How the data were processed

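The deposited values are linear intensity, 1 per probe set and array, which the authors made with RMA, a multi-array summary, as listed in the submitters' processing notes. Its version is not given in the sources used here. Biotin-labelled cRNA was made from total RNA, per the labels' protocols. RMA as generally described makes the intensity distributions of arrays alike, so a shift common to most transcripts cannot be seen. Of 12488 probe sets, 66 array controls were left out. The log2 was taken with nothing added, and the 40% dimmest probe sets per tissue were left out. Differences were fitted with limma 3.58.1 in R 4.3.3 (lmFit, eBayes), with arm and batch as fixed terms, two-sided, Benjamini-Hochberg adjusted at 0.05. Groups and batches come from the labels. The number of arrays limits the precision. Correlations used 100000 permutations within arm and batch. The members, the gene lists and the rule for named genes (all members, the 5 most like probe sets, at most 3 genes per list and comparison) were chosen with earlier results of these data known. Names and promoters come from the platform annotation and RefSeq. Filter, scale, batch term, array weights, probe set averaging and single arrays were varied.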

Additional observations from a re-analysis of the deposited data

Results flagged for a closer look

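Within 42 groups of member values, 2 held an array far from the others by Dixon's test, and chance gives about 1 in 20. Both were CS arrays at the Junb r probe set. In hippocampus, CS replicate 105 of batch 4 was lowest at 7.62, with the next array at 7.82 and the highest at 7.98. In amygdala, CS replicate 251101 of batch 2 was highest at 7.65, with the next at 7.37 and the lowest at 7.29.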

How the results depend on the processing

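No difference called for a member changed direction under any of 179 settings, and 173 of these kept the call. Most of these settings left out a single array, and settings that put Fos below the filter are not among them for Fos. The 6 lost calls were Fos in hippocampus CS minus NH with only the 2 arms compared (0.93, limma adjusted p = 0.562), in batch 4 alone (0.98, 0.9999), in batch 6 alone (0.85, 0.0670) and without NH replicate 100 (0.79, 0.116), Fos in hippocampus FC minus NH in batch 4 alone (1.15, 0.962), and Junb in amygdala FC minus NH in batch 3 alone (0.57, 0.0653). All 6 of these settings rest on fewer arrays, and the cause of each lost call was not tested. Leaving out the 60% dimmest probe sets, or averaging the probe sets of a gene, put Fos below the filter, so the number of members called was 0 in hippocampus FC minus NH, hippocampus CS minus NH and amygdala CS minus NH and 1 in amygdala FC minus NH, against 1, 1, 1 and 2. In hippocampus CS minus NH it was 0 with only the 2 arms, in batch 4 alone and in batch 6 alone, and 2 with no batch term. In hippocampus FC minus NH it was 0 in batch 4 alone, and 2 with batch as a random block or no batch term. In amygdala CS minus NH it was 2 with array weights, with a random block, with no batch term and without the batch of NH arrays alone, which was added after seeing the data. In amygdala FC minus NH it was 4 with array weights, 3 with a random block, 3 with no batch term and 1 in batch 3 alone, and in amygdala FC minus CS it was 1 in batch 3 alone. With each of the 26 hippocampus and 22 amygdala arrays left out in turn (those of the batches with NH alone added after seeing the data), the number called ranged from 0 to 1 in hippocampus CS minus NH, stayed at 1 in hippocampus FC minus NH, ranged from 1 to 2 in amygdala CS minus NH and from 2 to 3 in amygdala FC minus NH, and was 0 in both FC minus CS comparisons. The share of all probe sets called was counted in the main fit only. A change in the number of members called under another setting is therefore not a result about the members. No paired analysis was possible because the arms of a tissue share no replicate numbers. Dim probe sets limit what can be said of the second Fos probe set.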
